A study of Mus musculus with 6 samples.

Results

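The CCN genes encode secreted matricellular proteins, which sit in the extracellular matrix and signal to cells rather than build fibres. Ccn1 (also Cyr61), Ccn2 (Ctgf), Ccn3 (Nov), Ccn4 (Wisp1) and Ccn5 (Wisp2) were taken by gene name from the count table, and all 5 were found among its 55291 genes and passed the low-count filter that left 19971 genes for testing. Dorsal skin RNA was sequenced in 3 wild-type samples of strain C57BL/6 and 3 samples of strain B6.Cg-Fbn1Tsk/J, all at day 40. The second strain carries tight-skin (Tsk), an allele of the fibrillin 1 gene Fbn1, and its genotype is written Fbn1+/- in the labels. Since Tsk duplicates an inner stretch of Fbn1, that notation need not mean a lost copy. No other allele or agent is named for either group. The labels number the samples without saying that each came from its own animal. The p-values therefore measure the spread among the sequenced samples, which may be technical.

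CCN proteins share an insulin-like growth factor binding protein domain, a von Willebrand factor type C domain and a thrombospondin type 1 domain, and all but CCN5 end in a cystine knot domain. They bind integrins, low-density lipoprotein receptor-related proteins and heparan sulphate proteoglycans. Ccn1 and Ccn2 are known as rapid targets of mechanical signalling through YAP and TEAD, and Ccn2 also of TGF-beta, and CCN2 is widely used as a marker of fibrosis in skin. CCN3 is described as a counterweight to CCN2 in several fibrosis models, and Ccn4 and Ccn5 were first described as genes induced by Wnt1.

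The coding stretch for the first cysteine-rich motif is shown for the 5 genes because it carries the family resemblance and shows how far the genes still differ in sequence. Cysteine codons are in capitals, and each stretch holds 48 bases, written 5′ to 3′ from the GENCODE M21 transcripts.
Ccn1: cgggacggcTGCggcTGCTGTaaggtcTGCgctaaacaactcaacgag
Ccn2: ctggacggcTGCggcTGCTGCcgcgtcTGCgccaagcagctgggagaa
Ccn3: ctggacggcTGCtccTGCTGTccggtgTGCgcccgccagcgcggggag
Ccn4: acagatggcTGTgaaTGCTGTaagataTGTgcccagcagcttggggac
Ccn5: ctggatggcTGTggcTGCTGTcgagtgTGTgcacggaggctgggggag
Each stretch was located by the spacing of the 4 cysteines of the motif, so their codons stand at the same places in the 5 genes by choice. Pairs of stretches share 29 to 35 of 48 bases, those of the cysteine codons among them. Over the whole aligned coding sequence, pairs of members were 61.7 to 67.5% identical. The longest run of identical bases between the transcripts of any 2 members was 10 to 28 bases, the longest being between Ccn2 and Ccn3. Read length is not given in the sources used here. Ccn5 has 753 coding bases and 29 cysteine codons, against 1044 to 1137 coding bases and 38 to 40 cysteine codons in the others.

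Library totals ran from 17561453 to 19219814 counts. Ribosomal RNA genes held 6.11 to 7.81% of counts in wild type and 2.68 to 5.46% in Tsk, without overlap. The part of this difference in the results was not tested on its own. CPM is the count relative to the library total after TMM, a scaling of each library that assumes that most genes do not change. On this scale Fbn1 stood at 303 ± 45.6 CPM in wild type and 1761 ± 302 CPM in Tsk (SD, n = 3 each). Its log2 fold change was 2.54 ± 0.24 (SE, edgeR adjusted p = 0.00401). The gene-level count sums both Fbn1 alleles and does not tell them apart. Of all genes tested, 683 (3.42%) changed at an edgeR adjusted p under 0.05, with 544 (2.72%) higher and 139 (0.696%) lower in Tsk, and the median log2 fold change was -0.03. With skeletal muscle markers and ribosomal RNA genes both removed before TMM, 687 genes changed, 546 higher and 141 lower. Leaving out wild-type replicates 1, 2 and 3 in turn gave 1381, 328 and 63 changed genes, and leaving out Tsk replicates 5 and 6 gave 402 and 388, so the number rests on single libraries. Whole skin was used, and summed levels of marker genes for several cell types differed between the groups, with all 12 skeletal muscle markers detected and summing to 142262 to 256207 CPM in wild type and 112432 to 134974 CPM in Tsk. All 12 fibroblast and all 10 keratinocyte markers, the defining cells of skin, passed the filter.

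Ccn3 was the member that changed. Its product is a secreted modulator of integrin and Notch signalling. The 3 wild-type libraries held 36, 26 and 31 counts, and the 3 Tsk libraries held 655, 996 and 699 counts. On the CPM scale these were 2.003, 1.68 and 1.93 in wild type and 34.0, 46.6 and 32.9 in Tsk. The groups lay far apart, since the lowest Tsk library was 16.4-fold above the highest wild-type library. Means were 1.87 ± 0.166 CPM in wild type and 37.8 ± 7.61 CPM in Tsk (SD, n = 3 each). The log2 fold change was 4.33 ± 0.20 (SE, edgeR adjusted p = 0.000126), which is 20.1-fold with a 95% interval of 14.7 to 27.4.

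Within both groups, Ccn3 had the smallest spread of the 5 members. Its highest library stood 1.19-fold above its lowest in wild type and 1.42-fold in Tsk, where replicate 5 was highest. It had rank 1 of 19971 genes by p-value. By log2 fold change it had rank 5 among the 15327 genes whose mean log2 CPM reached 1. It passed the threshold in all 20 alternative analyses, with a log2 fold change from 3.88 to 4.60 and an adjusted p of at most 0.00449. Those included a fit with the skeletal muscle marker score as a covariate and a fit with the adipocyte marker score, which left 54 and 20 genes past the threshold in all. Ccn3 lies on chromosome 15 from 54745702 to 54754039 on the plus strand of mm10.

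**Figure D1:**
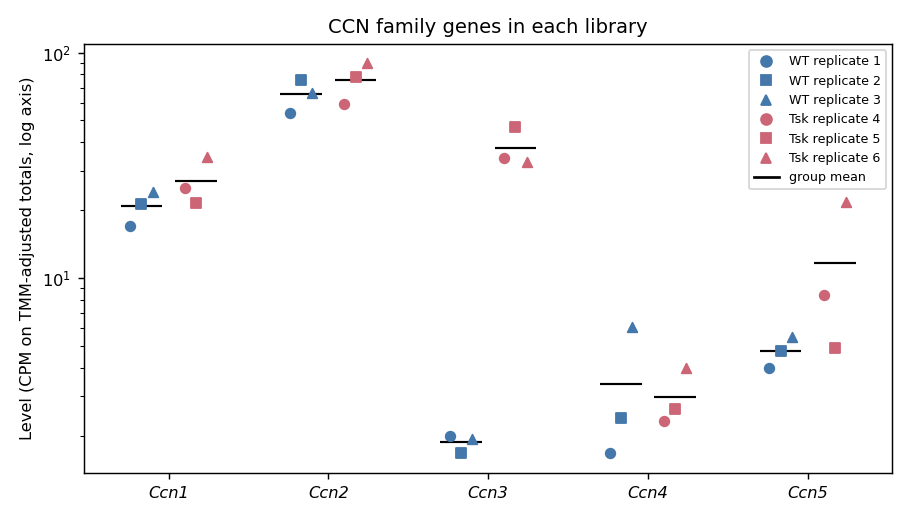
Levels of the 5 CCN genes in every library, in CPM on TMM-adjusted totals on a log axis. Blue points are the 3 wild-type libraries, red points the 3 Tsk libraries, and black lines the group means. Ccn3 stands at 1.68 to 2.003 CPM in wild type and 32.9 to 46.6 CPM in Tsk, while the groups overlap for the other 4 genes.

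Ccn1 did not pass the test. It encodes an integrin ligand that is induced within minutes of growth factor or mechanical stimulation. Its levels were 16.97, 21.3 and 24.2 CPM in wild type and 25.1, 21.5 and 34.4 CPM in Tsk. The groups overlapped, because Tsk replicate 5 lay below wild-type replicate 3. The log2 fold change was 0.37 ± 0.20 (SE, edgeR adjusted p = 0.343), with a 95% interval of -0.08 to 0.83, which leaves room for a fold change of up to 1.78. With the adipocyte marker score as a covariate it was 0.85, also not past the threshold. The Ccn1 gene spans bases 145646976 to 145649981 of chromosome 3, minus strand.

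Ccn2, the classic profibrotic member, was the most abundant CCN gene per kb of exon in every library. Its levels were 54.3, 75.7 and 66.3 CPM in wild type and 59.3, 77.8 and 89.5 CPM in Tsk. The groups overlapped over most of their range. The log2 fold change was 0.21 ± 0.18 (SE, edgeR adjusted p = 0.583), with a 95% interval of -0.21 to 0.63. The upper end of that interval is a fold change of 1.54. Ccn2 lies on chromosome 10 from 24595442 to 24598683 on the plus strand. Gm15270, on the minus strand, overlaps it and held 9.04 to 35 counts per library against 975 to 1902 for Ccn2, and the strand setting of the counting is not given in the sources used here.

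Ccn4 was low in both groups. It encodes a secreted protein first described as Wnt1-inducible. Wild-type libraries held 30, 37 and 98 counts and Tsk libraries 45, 56 and 85 counts, or 1.67, 2.397 and 6.09 CPM and 2.33, 2.62 and 4.00 CPM. Wild-type replicate 3 was the highest of the 6 libraries. The log2 fold change was -0.17 ± 0.46 (SE, edgeR adjusted p = 0.878), with a 95% interval of -1.23 to 0.88. It was 0.57 without wild-type replicate 3 and 0.13 with library totals alone as the scaling, so no direction can be given. Ccn4 lies on chromosome 15 from 66891320 to 66923201, 12.1 Mb from Ccn3.

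Ccn5 varied most between Tsk libraries. It encodes the member without the last domain and is known from mesenchymal cells and adipocyte precursors. Counts were 72, 73 and 88 in wild type and 163, 105 and 462 in Tsk, which gave 4.01, 4.73 and 5.47 CPM and 8.45, 4.91 and 21.7 CPM. Tsk replicate 6 stood 4.43-fold above Tsk replicate 5, which fell within the wild-type range. The log2 fold change was 1.31 ± 0.49 (SE, edgeR adjusted p = 0.191), with a 95% interval of 0.17 to 2.44. The estimate was 0.50 without Tsk replicate 6 and 2.71 with the adipocyte marker score as a covariate, neither past the threshold, and in DESeq2 the adjusted p was 0.0448, the 1 alternative of 20 in which Ccn5 passed. Over its alternatives the adjusted p ran from 0.0448 to 0.662. Ccn5 lies on chromosome 2 from 163820861 to 163833146 on the plus strand, 38.3 Mb from Fbn1.

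**Figure D2:**
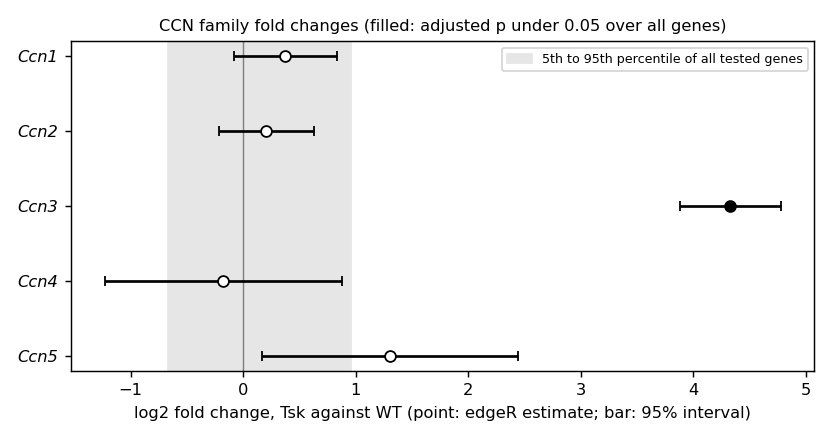
Log2 fold change of each CCN gene in Tsk against wild type from edgeR, with its 95% interval, beside the range that holds 90% of all tested genes in grey. Ccn3 at 4.33 is the 1 filled point, which marks an adjusted p under 0.05, and the intervals of Ccn1, Ccn2 and Ccn4 include 0.

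In all, 1 of 5 members changed, where 3.42% of all tested genes did. For the same 1 member the 3 Tsk libraries lay above the 3 wild-type libraries, which held for 14.1% of all tested genes, and no member lay below, which held for 10.6%. The ratio of a member to Ccn2 within a library does not depend on how libraries are scaled. The log2 ratio of Ccn3 to Ccn2 counts was -5.11 ± 0.363 in wild type and -0.996 ± 0.389 in Tsk (SD), a difference of 4.11 between groups that did not overlap. An exact two-sided permutation test gave p = 0.10, the smallest that 3 against 3 samples allow. The same difference was 0.16 for Ccn1 (exact p = 0.50), -0.20 for Ccn4 (exact p = 1) and 0.84 for Ccn5 (exact p = 0.30), and the direction for Ccn4 turned to 0.32 without wild-type replicate 3. These 4 ratios share Ccn2 and so are not independent.

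Levels of different genes were compared per kilobase of exon. In wild type the order was Ccn2 at 22.9 ± 3.76, Ccn1 at 10.3 ± 1.79 and Ccn5 at 2.46 ± 0.379 CPM per kb, with no overlap between neighbours. Ccn3 at 0.652 ± 0.0579 and Ccn4 at 0.608 ± 0.426 CPM per kb followed and overlapped (SD, n = 3 each). In Tsk the order was Ccn2 at 26.4 ± 5.32, then Ccn1 at 13.4 ± 3.29 and Ccn3 at 13.2 ± 2.65 CPM per kb, which overlapped. Ccn5 at 6.08 ± 4.61 CPM per kb came next, with its highest library at 11.3 just under the lowest Ccn3 library at 11.5, and Ccn4 was last at 0.536 ± 0.160. Ccn3 thus stood below Ccn5 in all 3 wild-type libraries and above it in all 3 Tsk libraries, and in Tsk replicate 5 it also stood above Ccn1.

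The make-up of the family shifted with Ccn3. Its share of the summed CCN level per kb was 2.29, 1.45 and 1.69% in wild type and 23.8, 28.4 and 15.97% in Tsk. The share of Ccn2 went from 62.0 ± 3.52% to 44.3 ± 3.07% (SD, n = 3 each) although its own level did not pass the test, because shares add to a fixed whole. The summed level was 30.5 to 40.5 CPM per kb in wild type and 49.8 to 71.8 in Tsk. Without Ccn3 the sum was 29.8 to 39.9 in wild type and 38.0 to 60.3 in Tsk, and the groups overlapped. The related gene Ccn6, which was not among the members, was barely detected, with at most 1 count in a wild-type library and at most 3 in a Tsk library, and was not tested.

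**Figure D3:**
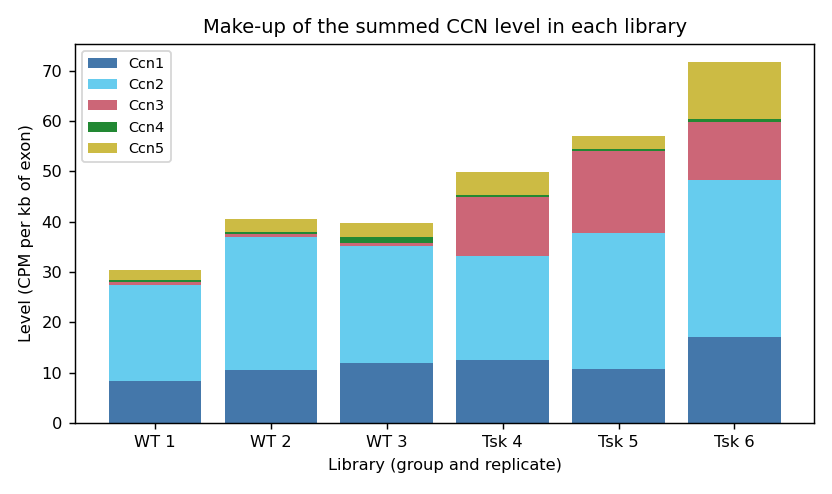
Stacked levels of the 5 CCN genes in each library, in CPM per kb of exon. Ccn2 and Ccn1 make up most of each bar, and the Ccn3 segment holds 1.45 to 2.29% of the wild-type bars and 15.97 to 28.4% of the Tsk bars.

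Genes whose centred log2 levels lay nearest to those of Ccn3 over the 6 libraries, by root mean square difference over 15142 genes compared, were Dact2, Islr2, Aldh1a3, Ildr2 and Corin. The difference was 0.44 log2 units for Dact2, whose product acts inside cells on Wnt and TGF-beta signalling, and 0.61 to 0.65 for the other 4. Islr2 encodes a membrane protein with leucine-rich repeats, and it went from 2.86 ± 0.783 to 30.2 ± 8.88 CPM. Aldh1a3, a retinoic acid synthesis enzyme, went from 3.03 ± 1.00 to 30.9 ± 11.1 CPM. Dact2 itself went from 1.26 ± 0.502 to 21.5 ± 5.21 CPM. Corin, a membrane-bound serine protease, went from 0.561 ± 0.215 to 6.41 ± 1.59 CPM, and Ildr2 from 5.16 ± 0.291 to 45.2 ± 11.3 CPM (SD, n = 3 each). The measure favours genes with a fold change close to that of Ccn3, and the groups dominate it. Within the Tsk group the genes did not all follow Ccn3, which was highest in replicate 5, since Islr2, Aldh1a3, Ildr2 and Corin were highest in replicate 6.

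**Figure D4:**
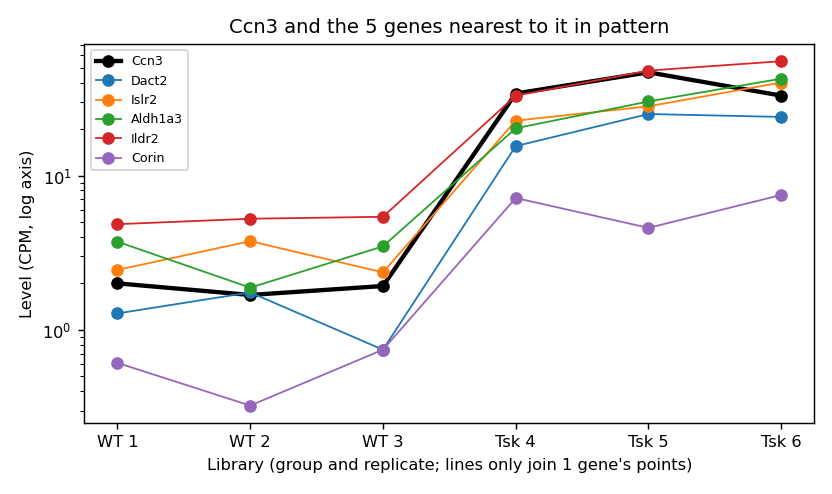
Levels of Ccn3 (black) and the 5 genes nearest to it in pattern, in CPM on a log axis for each of the 6 libraries, with lines that only join the points of 1 gene. For each of the 6 genes the Tsk points lie above all wild-type points, and Ccn3 runs from 1.68 to 46.6 CPM.

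Ccn1 and Ccn2 are standard readouts of YAP and TEAD, so other genes of that set were examined. Of 19 tested YAP and TEAD targets besides the CCN genes, 4 rose and 2 fell, with a median log2 fold change of 0.49 against -0.03 over all genes. DESeq2 called 8 of them, and 13 had an unadjusted edgeR p under 0.05, against 20.1% of all tested genes. Over all tested genes edgeR called 3.42% and DESeq2 called 1592 of 19971. Amotl2, which encodes an angiomotin family protein that binds YAP, rose by 0.78 ± 0.11, with 43.3 ± 1.62 CPM in wild type and 74.4 ± 5.09 CPM in Tsk. Rbms3, an RNA-binding protein gene, rose by 0.95 ± 0.13. Ankrd1, a nuclear ankyrin repeat protein of stressed muscle, had a log2 fold change of -3.96 ± 0.51, with 16.2 ± 8.79 CPM in wild type and 1.05 ± 0.374 CPM in Tsk. Axl (1.205 ± 0.20), Ccdc80 (1.59 ± 0.31) and Gadd45a (-1.17 ± 0.23) completed the set and were named after their values were seen. Of 16 tested genes of the Hippo pathway and TEAD factors, 1 rose, the TEAD cofactor gene Vgll3, at 1.44 ± 0.14 (edgeR adjusted p = 0.00512), and DESeq2 called 3. The coactivator genes Yap1 and Wwtr1, named for their role after values were seen, stood at -0.16 ± 0.13 and 0.19 ± 0.13. With 1 library left out, Ankrd1 and Vgll3 passed in 6 of 6 fits and Rbms3 and Amotl2 in 5, all but the fit without wild-type replicate 3.

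MRTF and SRF, the actin-sensing factors that also drive Ccn1 and Ccn2, had 0 of 14 tested list members changed in edgeR and limma-voom and 3 in DESeq2. At an unadjusted edgeR p under 0.05 it was 5 of 14, against 20.1% of all tested genes. Their median was 0.19, and the most abundant member, the tropomyosin gene Tpm2, stood at -0.62 ± 0.30 (edgeR adjusted p = 0.301). Among 14 TGF-beta response genes, fibronectin (Fn1) was the 1 that rose, at 1.76 ± 0.27 (edgeR adjusted p = 0.0153), and the list median was 0.32. DESeq2 called 5 of the 14, and 7 had an unadjusted edgeR p under 0.05, against 20.1% of all tested genes. Fn1 stood at 309 ± 47.8 CPM in wild type and 1049 ± 341 CPM in Tsk, and it did not pass without wild-type replicate 3. The collagen genes Col1a1 (1.84 ± 0.44, edgeR adjusted p = 0.0613), Col1a2 (1.56 ± 0.42, adjusted p = 0.0812) and Col3a1 (1.24 ± 0.38, adjusted p = 0.115), named after their values were seen, had groups apart and stand also among the fibroblast markers. Of 16 immediate early genes, the class to which Ccn1 belongs, 0 rose and 1 fell, with a median of -0.23, and DESeq2 called 3. That gene, Fosl1, a Fos-related AP-1 subunit, had a log2 fold change of -2.56 ± 0.53. Over all tested genes 2.72% rose and 0.696% fell in edgeR, and DESeq2 called 1592 of 19971. The call of Fosl1 held without wild-type replicates 1 or 2 but not without wild-type replicate 3 or any 1 of the Tsk libraries.

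Ccn4 and Ccn5 take their older names from Wnt1 induction. Of 13 tested Wnt response genes, 2 rose, with a median of 0.67, and DESeq2 called 6. At an unadjusted edgeR p under 0.05 it was 7 of 13, against 20.1% of all tested genes. Over all tested genes 2.72% rose in edgeR, and DESeq2 called 1592 of 19971. Twist1, a mesenchymal transcription factor, rose by 1.65 ± 0.29 and Lef1, a partner of beta-catenin on DNA, by 1.107 ± 0.21. Twist1 did not pass without wild-type replicates 2 or 3, and Lef1 passed in 1 of 6 fits with a library left out, the one without wild-type replicate 1. Axin2, the most general readout of the pathway, was named after its value was seen and stood at -0.09 ± 0.16. Of 14 tested Wnt ligand genes, 3 passed the threshold, and the list median was 0.14 with 5 called in DESeq2. An unadjusted edgeR p under 0.05 was found for 6 of the 14. Wnt10b rose by 2.82 ± 0.25 and Wnt2 by 2.99 ± 0.45. Wnt2b, at 2.76 ± 0.43, had 4 to 5 counts per wild-type library and 23 to 56 per Tsk library, so it passed the low-count filter only through the Tsk libraries and its call supports nothing. Wnt2 and Wnt2b did not pass without wild-type replicate 3, and Wnt10b passed in 6 of 6 such fits. Wnt1 itself, named after its values were seen, had at most 1 count per wild-type library and 8 to 18 per Tsk library, did not pass the low-count filter and was not tested.

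On the receiving side, 1 of 15 tested receptor and co-receptor genes rose, with a median of 0.08. DESeq2 called 2 of the 15, and 1592 of all 19971 tested genes, where edgeR called 3.42%. Itgb3, the beta 3 chain of the integrin that binds CCN1, CCN2 and CCN3, rose by 1.12 ± 0.17 (edgeR adjusted p = 0.0157), with 8.18 ± 1.36 CPM in wild type and 17.8 ± 2.22 CPM in Tsk. Its partner chain Itgav stood at -0.30 ± 0.13 and the endocytic receptor Lrp1 at 0.98 ± 0.23 (edgeR adjusted p = 0.0548), both named after their values were seen. Notch1, a receptor to which CCN3 is known to bind, was likewise named after its value was seen and stood at 0.08 ± 0.17. Of 12 further Notch pathway genes 0 changed in edgeR and limma-voom and 3 in DESeq2. At an unadjusted edgeR p under 0.05 it was 8 of 12, against 20.1% of all tested genes. Their median was 0.53, and the most abundant, Notch2, stood at 0.49 ± 0.14 (edgeR adjusted p = 0.0998). Among 7 tested proteases that are known to cleave CCN proteins, 1 rose, the membrane-bound Mmp14 at 1.26 ± 0.26 (edgeR adjusted p = 0.0378), the list median was 0.18, and DESeq2 called 3. Of 6 fits with a library left out, Mmp14 passed in the one without Tsk replicate 5, and Itgb3 in all but the one without wild-type replicate 3.

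**Figure D5:**
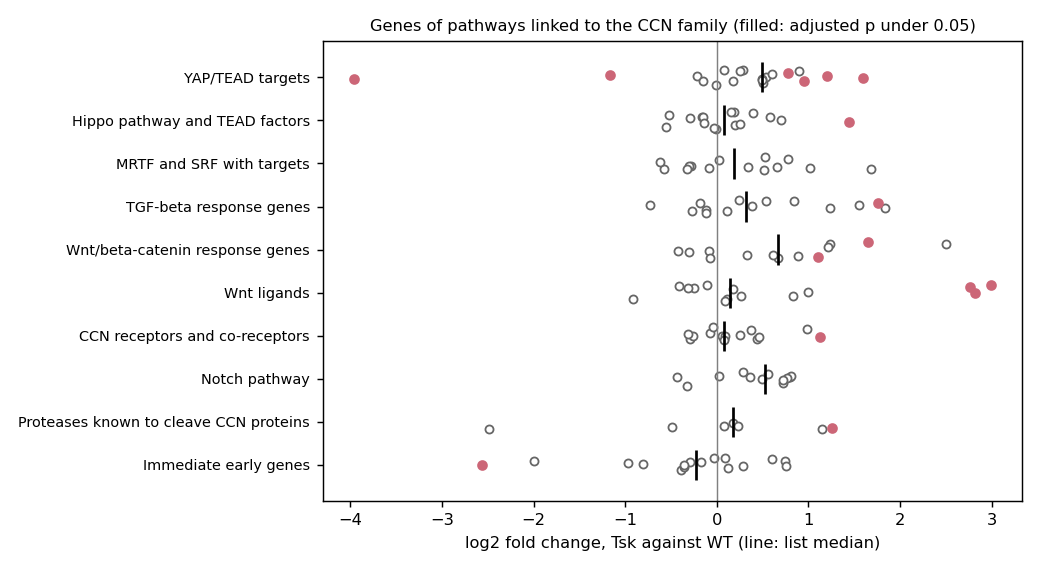
Log2 fold change in Tsk against wild type of each tested gene in 10 lists linked to the CCN family, with a black line at the list median and filled points at an edgeR adjusted p under 0.05. The list medians run from -0.23 for immediate early genes to 0.67 for Wnt response genes, and most points are open.

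Markers of several cell types moved with the groups, and in whole skin a change in the number of cells of a type cannot be told apart from a change in RNA per cell. The 12 fibroblast markers summed to 6311 to 11051 CPM in wild type and 18722 to 42673 CPM in Tsk. The upper end was Tsk replicate 6 alone, where Ccn5 was highest too, against 19973 and 18722 CPM in replicates 4 and 5. Of the 12, 5 rose, led by Pi16 at 3.14 ± 0.43 and Dpt at 1.22 ± 0.22. DESeq2 called 10 of the 12, and 10 had an unadjusted edgeR p under 0.05, against 20.1% of all tested genes. Over all tested genes 2.72% rose in edgeR, and DESeq2 called 1592 of 19971. The 10 adipocyte markers summed to 375 to 589 CPM and 659 to 2944 CPM, with 3 higher, among them Lep and Slc7a10. The adipocyte upper end was Tsk replicate 5 alone, at 2944 CPM against 862 and 659 in replicates 4 and 6. All 10 adipocyte markers and Ccn3 were highest in that library within the Tsk group. The summed endothelial markers, at 524 CPM, and the summed melanocyte markers, at 45.8 CPM, were highest there too. The share of all tested genes highest in that library was not taken, so no link is read. Without Tsk replicate 5 the log2 fold change of Ccn3 was 4.15. Endothelial markers summed to 209 to 290 CPM and 312 to 524 CPM, with 3 of 10 higher, led by Plvap and Vwf. DESeq2 called 4 of the 10, and 7 had an unadjusted edgeR p under 0.05. Macrophage markers summed to 292 to 382 CPM and 419 to 1100 CPM and melanocyte markers to 29.2 to 36.1 and 38.1 to 45.8 CPM. The macrophage upper end was Tsk replicate 6 alone, at 1100 CPM against 419 and 556 in replicates 4 and 5. Of the 10 macrophage and 6 tested melanocyte markers, 0 and 0 changed in edgeR and 4 and 2 in DESeq2. At an unadjusted edgeR p under 0.05 it was 7 and 4, against 20.1% of all tested genes. Schwann cell markers summed to 177 to 266 CPM and 256 to 413 CPM, with Scn7a the 1 of 10 that rose. DESeq2 called 1 of the 10, and 5 had an unadjusted edgeR p under 0.05. Inner root sheath and hair matrix markers summed to 38.4 to 70.1 CPM and 76.5 to 79.0 CPM. DESeq2 called 3 of the 9 tested, and 5 had an unadjusted edgeR p under 0.05. In edgeR 4 of the 9 passed the threshold, led by Dlx3 and Krt25. Of these, Krt25 and, named after their values were seen, Krt27 and Krt71 did not have 10 counts in each wild-type library and passed the filter through the Tsk libraries, so Dlx3 is the 1 call that does not rest on the filter. Of 10 smooth muscle and pericyte markers, DESeq2 called 6, and 7 had an unadjusted edgeR p under 0.05. These markers had a median of 0.55, and Mylk and Myh11 rose. Their sum was 2213 to 3132 CPM in wild type and 1712 to 2067 CPM in Tsk, but Des, named after its values were seen and also expressed in skeletal muscle, held 59.4 to 79.2% of it, and without Des it was 502 to 748 and 639 to 840 CPM. Keratinocyte markers summed to 6439 to 9698 and 5618 to 9560 CPM, with 0 of 10 changed in edgeR or DESeq2 and 1 at an unadjusted edgeR p under 0.05. Skeletal muscle markers, whose summed range is given above, had 0 of 12 changed in edgeR and 10 in DESeq2, with a median of -0.79. At an unadjusted edgeR p under 0.05 it was 9 of 12, against 20.1% of all tested genes. Of the 11 markers named by their p, 11 lost their call in at least 1 fit with a library left out, wild-type replicate 3 being among those libraries each time. No marker list held a gene at 0 in every library.

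Set against each of these 10 lists in turn, Ccn3 stayed higher in Tsk. That outcome, and the separation of the groups, was fixed in advance, because no summed list rose nearly as much as Ccn3. It therefore says nothing on the part of any cell type. The log2 difference between groups of Ccn3 over the summed markers was 2.84 for fibroblast markers, 2.99 for adipocyte markers and 5.05 for skeletal muscle markers, the last being the highest, and the groups were apart for 10 of 10 lists. Over the fibroblast markers, the same difference was -1.12 for Ccn1, -1.28 for Ccn2 and -1.48 for Ccn4, with groups apart. The collagen genes Col1a1, Col1a2 and Col3a1 made up 95.5 to 97.4% of that sum in each library, and a sum of the other 9 markers was added after the data were seen. Over those 9 the difference was 3.18 for Ccn3, -0.78 for Ccn1, -0.94 for Ccn2 and -1.14 for Ccn4, with groups apart, and -0.10 for Ccn5, with overlap. Over the skeletal muscle markers it was 1.08 for Ccn1 and 0.92 for Ccn2, also with groups apart, so their sign depended on the list. These differences of Ccn1, Ccn2 and Ccn4 were also largely fixed in advance. The fibroblast sums rose and the muscle sum fell without overlap, while these members did not pass the test. The differences therefore mostly restate the moves of the sums. Ccn5 differed by -0.44 over all 12 fibroblast markers, with overlapping groups. Over the 3 Tsk libraries, 3 of 12 fibroblast markers stood in the order of Ccn5. The share of all tested genes in that order was not taken, so no link is read from the count. The adipocyte difference of 2.99 leans on Plin4, named after its values were seen. It held 185 to 372 CPM of the wild-type adipocyte sum of 375 to 589 CPM. Its log2 fold change was 0.34 ± 0.37, against a list median of 2.80. Tchh (-0.16 ± 0.25), named likewise, held 46.3 of 58.4 CPM of the mean inner root sheath and hair matrix sum in wild type. Sums without these genes were not taken. The part of the listed cell types in the levels of the CCN genes was not tested.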

How the data were processed

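RNA of dorsal skin was sequenced in 3 wild-type and 3 Tsk samples, from ribosomal RNA-depleted stranded libraries, per the labels' protocols. The submitters' processing notes name mm10, STAR, Partek 7.0 and bcl2fastq 2.19.1.403. Gene models, counting rule and strand setting are not given there. Estimated counts deposited by the authors were fractional for 34.8 to 37.3% of genes in a library and were rounded. Deposited CPM values and TMM-normalised signal, both with 0.0001 added by the authors per the file names, served for alternatives only. The deposited TPM table was not used, because it divides by the gene span with introns.

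The edgeR package, 4.0.16, was run in R 4.3.3 (on the rounded counts: quasi-likelihood F-test, robust, TMM, minimum count 10 and total 15), with Benjamini-Hochberg adjustment over 19971 genes and a threshold of 0.05. The SE is the log2 fold change divided by the square root of F, and 95% intervals use the t distribution. Fold changes are log2 ± SE and levels CPM ± SD. Exon lengths, coordinates and transcripts are from GENCODE M21, whose spans matched those in the files for all 5 members once 1 base was taken from each end coordinate. No library pair of a group agreed within sampling noise (smallest chi-square per degree of freedom 8.02). The step was tested on simulated counts for Tsk against wild type (19579 genes), where 40.0% of 2-fold and 84.0% of 4-fold changes were recovered and 10.8% of calls were false. Alternatives were other scalings, filters and roundings, DESeq2 1.42.0, limma 3.58.1, marker scores as covariates and leaving out each library. No molecular identifiers are named, so reads need not be independent molecules.

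The members and lists were chosen with earlier results of these data known. Named genes are the 5 members, Ccn6, Fbn1, from each list the 3 genes lowest in p among those past the threshold (or, with none past it, the most abundant), up to 2 such markers per cell type, and the 5 genes nearest in pattern to a member that changed. Genes named outside this rule are said to be so.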

Additional observations from a re-analysis of the deposited data

How the results depend on the processing

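No paired analysis was possible because the replicate numbers of the groups do not overlap. Ccn1, Ccn2 and Ccn4 passed in 0 of 20 alternatives, Ccn3 in 20 and Ccn5 in 1, DESeq2, where 2 members changed (Ccn5 at 1.30). With 1 library left out, log2 fold changes ran from 0.16 to 0.51 for Ccn1, 0.07 to 0.35 for Ccn2, 4.15 to 4.42 for Ccn3, -0.48 to 0.57 for Ccn4 and 0.50 to 1.67 for Ccn5. Ccn5 reached 2.71 and Ccn1 0.85 with the adipocyte score. Ccn4 turned positive at 0.13 with library totals, 0.019 in limma-voom, 0.22 and 0.27 in limma-trend on deposited CPM with pseudocounts 0.5 and 0.1, 0.11 on the deposited TMM signal, and 0.38 and 0.32 with the muscle and adipocyte scores as covariates. The Ccn4 to Ccn2 ratio ran from -0.47 to 0.32 with 1 library left out. The genes changed numbered 1791 (1695 higher) with library totals, 1157 without the filter, 1592 in DESeq2, 1916, 1887 and 1279 in the 3 limma-trend fits, 54 and 20 with the muscle and adipocyte scores, and 63 to 1381 with 1 library left out. Library totals moved the median of all genes from -0.03 to 0.25, and with it Ccn1 to 0.67 and Ccn2 to 0.51, and limma-trend moved it to 0.23, 0.25 and 0.11. The split of higher and lower was 763 and 618 without wild-type replicate 1, 1813 and 103 in limma-trend on CPM with pseudocount 0.5. At 3 libraries a group, 40.0% of simulated 2-fold changes were recovered. Ccn4 and Ccn6 and the wild-type level of Ccn3 rest on few counts.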

Other observations

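Genes near the members, within 500 kb of each and chosen for a look after the results were seen, mostly did not pass the test. Near Ccn3, 2 of 8 tested neighbours rose, Enpp2, the gene of the lysophospholipase autotaxin, at 1.62 ± 0.26 (edgeR adjusted p = 0.0171) and Tnfrsf11b, the gene of osteoprotegerin, at 1.07 ± 0.21 (edgeR adjusted p = 0.0328). The others near Ccn3 had log2 fold changes between -0.35 and 0.57. Near Ccn1, 2 of 10 tested neighbours changed, with Syde2 at 0.97 ± 0.15 and Col24a1 at -1.22 ± 0.24. Near Ccn5, 1 of 15 did, the protease inhibitor gene Wfdc5 at 1.60 ± 0.33, and near Ccn2 and Ccn4 0 of 8 and 0 of 5 did. Over all genes 3.42% changed.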
